A study of Mus musculus with 6 samples.

Results

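A group of 8 patterning transcription factors of the limb and tubercle was followed in sorted cells of the genital tubercle, the bud from which the external genitalia develop. They were the T-box factors Tbx2, Tbx3, Tbx4, Tbx5 and Tbx18, the LIM-homeodomain factor Isl1 and the basic helix-loop-helix factors Hand1 and Hand2. Members were all probe sets annotated to these 8 genes, 19 of 45037 probe sets that are no controls. A probe set is a group of short oligonucleotides on the array that report 1 transcript region. The arrays compared reporter-positive cells, which the labels describe as urethral epithelium, with reporter-negative cells, the other cells of the tubercle, at 12.5 days post coitum. All mice, of mixed background, carried the alleles Shhtm1(EGFP/cre)Cjt and Gt(ROSA)26Sortm3(CAG-EYFP)Hze, so both groups share them. Under the Shh locus Cre turns on the EYFP reporter permanently, so a positive cell has either made Shh itself or descends from one that did. Each group held 3 arrays, from pools of 3, 5 and 2 littermates of both sexes for replicates 1, 2 and 3. The series profiled the urethral plate epithelium as a signalling tissue. The comparison gives the signal of these factors in the cells sorted as positive and in those sorted as negative.

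T-box proteins bind DNA through a shared domain. Tbx2 and Tbx3 mainly repress their targets, whereas Tbx4 and Tbx5 activate genes of limb outgrowth, Tbx4 in the hindlimb and Tbx5 in the forelimb. Isl1 is needed to start the hindlimb bud, and Hand2 sets up Shh expression at the posterior limb margin. In the RefSeq gene table Tbx2 and Tbx4 are neighbours on chromosome 11 and Tbx3 and Tbx5 on chromosome 5, with 0 protein-coding genes between the members of either pair.

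Isl1 was bright in the positive and in the negative cells. It stood apart from Tbx2, Tbx4, Tbx5, Tbx18 and Hand2 most clearly in positive replicate 2. In positive replicate 2 the brightest Isl1 probe set read 293.21, while those of Tbx2, Tbx4, Tbx5 and Tbx18 lay below the background of that array and that of Hand2 just above it. Tbx3 was above background there in 3 probe sets. In positive replicate 1 all of these genes read well above background. In positive replicate 3, a dim array, the brightest Isl1 probe set read 2.99 against a background of 1.12. There the brightest probe sets of Tbx2, Tbx4, Tbx5, Tbx18 and Hand2 lay below background. No member passed the test across all probe sets in the 6 arrays.

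The promoters of the genes on either side of this contrast are printed where a sequence was at hand, as the 250 bases before the annotated start (RefSeq, build GRCm38.p6), 5′ to 3′ along the gene. Capitals mark matches, on either strand, to the E-box CANNTG, which basic helix-loop-helix factors bind, and to TAAT, the core bound by many homeodomain factors. TAAT matches on both strands overlap in TAATTA.
Isl1 promoter, chr13:116309689-116309938, - strand: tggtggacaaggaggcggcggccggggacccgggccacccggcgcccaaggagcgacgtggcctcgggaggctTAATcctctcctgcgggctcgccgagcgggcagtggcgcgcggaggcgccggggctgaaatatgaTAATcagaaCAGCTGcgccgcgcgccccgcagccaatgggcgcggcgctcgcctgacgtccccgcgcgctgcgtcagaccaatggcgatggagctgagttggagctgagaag
Tbx4 promoter, chr11:85896515-85896764, + strand: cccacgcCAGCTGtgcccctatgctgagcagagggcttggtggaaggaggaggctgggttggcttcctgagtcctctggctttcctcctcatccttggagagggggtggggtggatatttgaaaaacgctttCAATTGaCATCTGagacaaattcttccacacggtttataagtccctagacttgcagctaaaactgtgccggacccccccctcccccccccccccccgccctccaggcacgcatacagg
Tbx18 promoter, chr9:87731261-87731510, - strand: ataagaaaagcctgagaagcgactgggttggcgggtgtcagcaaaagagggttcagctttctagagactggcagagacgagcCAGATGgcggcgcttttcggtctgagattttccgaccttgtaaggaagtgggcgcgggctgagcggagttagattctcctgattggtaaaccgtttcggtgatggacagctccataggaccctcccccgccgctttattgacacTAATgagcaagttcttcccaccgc
Hand2 promoter, chr8:57320733-57320982, + strand: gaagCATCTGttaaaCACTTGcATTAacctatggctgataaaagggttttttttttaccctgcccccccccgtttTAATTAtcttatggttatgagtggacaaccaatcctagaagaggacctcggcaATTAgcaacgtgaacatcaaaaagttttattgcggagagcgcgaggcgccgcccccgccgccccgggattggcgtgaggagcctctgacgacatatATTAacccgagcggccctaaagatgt

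Isl1 had 1 E-box and 2 TAAT matches, Tbx4 had 3 and 0, Tbx18 had 1 and 1, and Hand2 had 2 and 5. Of 27025 promoter windows of this length 66.0% held an E-box and 55.3% a TAAT core. The T-box half-site core AGGTGT and the Gli core GACCACCC, searched on both strands, had no match in the 4 windows, and 11.99% and 0.681% of all windows held them. The Isl1 window had a GC content of 71.2% and 33 CpG dinucleotides, against a median of 52.0% and 6 over all windows. The windows of Tbx4, Tbx18 and Hand2 had 58.4%, 54.0% and 49.2% GC. A match is a description of letters and not a binding site.

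Signal differed strongly between the arrays, and this touches every value below. Background was taken as the brightest unspiked bacterial control probe set, which read 4.47, 4.41 and 1.12 in positive replicates 1, 2 and 3 and 5.36, 8.28 and 2.03 in the negative ones. Positive replicate 3 was dim, with 23.0% of probe sets above background against 38.4% to 54.2% on the other 5 arrays. Across probe sets it correlated with each of the other arrays by rank at 0.303 to 0.317, while hybridization controls averaged 1443 to 1884 on all 6 arrays. Linear signals were therefore quantile normalized and given as log2(signal + 16), a scale that understates changes of dim genes. Of the 16 epithelial marker genes all were higher on average in the positive arrays, and Shh and Krt8 passed the test (adjusted p = 0.0215 each, limma). Each passed in 10 of 18 alternatives, with adjusted p reaching up to 0.632, and neither passed with pool size as a replicate block, where limma called 0 probe sets in all. The sort selects for Shh.

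**Figure D1:**
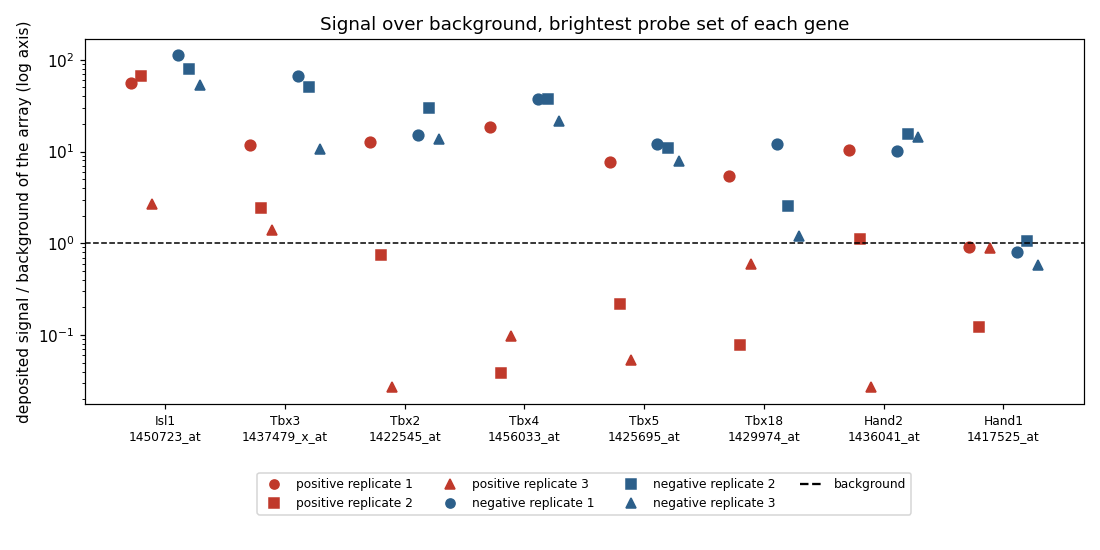
Deposited signal divided by the background of the same array (log axis) for the brightest probe set of each of the 8 genes, with positive arrays in red, negative arrays in blue and 1 marker shape per replicate. Isl1 lies above the dashed background line on all 6 arrays, whereas Tbx2, Tbx4, Tbx5 and Tbx18 lie under it in positive replicates 2 and 3.

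Isl1 ranked near the top of every array in both groups. Its brighter probe set, 1450723_at, read 250.03, 293.21 and 2.99 in positive replicates 1, 2 and 3, against 598.28, 664.67 and 107.86 in the negative ones. On its own array each of these values lay at or above the 97.2nd percentile of all probe sets. The normalized log2 signal was 8.17 ± 0.63 in positive and 8.33 ± 0.19 in negative arrays (SD, n = 3 each), and the groups overlapped. The difference of -0.15 (SE 0.38, 95% interval -1.0 to 0.70, adjusted p = 0.914, limma) was not past the threshold, and the interval is wide. The value was 0.19 without positive replicate 3 and 0.17 with array weights, so its sign depends on the dim array. The second probe set, 1422720_at, read 117.98, 94.58 and 2.25 in positive arrays against 335.81, 451.28 and 68.77 in negative arrays. After normalization its 3 positive values lay below its 3 negative ones, with a difference of -0.58 (SE 0.38, adjusted p = 0.770, limma). Both probe sets were above background on all 6 arrays.

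Tbx3 gave unlike values in its different probe sets. Probe set 1448029_at read 58.59, 49.63 and 0.19 in positive replicates 1, 2 and 3, against 201.67, 319.84 and 40.85 in the negative ones. Probe set 1445757_at read 35.60, 29.43 and 0.34 in positive arrays, against 38.92, 129.32 and 17.25 in negative arrays. Both stayed above background in positive replicates 1 and 2 and lay below it in replicate 3. Probe set 1437479_x_at, whose suffix marks probes that may bind other transcripts too, read 52.70, 10.82 and 1.58 in positive arrays against 353.32, 415.89 and 21.88 in negative arrays. In normalized log2 units the 3 probe sets differed by -1.39 (SE 0.59), -0.50 (SE 0.50) and -1.61 (SE 0.52), with adjusted p between 0.770 and 0.789 (limma). Groups did not overlap for 1448029_at and 1437479_x_at and overlapped for 1445757_at. In positive replicate 2 the distance from the negative mean was -0.54 for 1448029_at, 0.11 for 1445757_at and -2.19 for 1437479_x_at. The last of these is thus the probe set that carried the low value in that array. Another 2 probe sets of Tbx3, 1439567_at and 1444594_at, were above background on no array.

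Tbx2, the paralogue of Tbx3, has 1 probe set on the array. It read 56.75, 3.29 and 0.03 in positive replicates 1, 2 and 3, against 80.73, 246.48 and 27.88 in the negative ones. Only the first positive array was above background, and its normalized log2 signal of 6.26 lay inside the negative range of 5.98 to 6.91. The other positive arrays measured 4.33 and 4.01. The difference was -1.60 (SE 0.58, adjusted p = 0.770, limma), and with array weights -1.32 (SE 0.34, adjusted p = 0.0139 by limma, lowest of 19 alternatives that reached up to 0.986).

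Tbx4 had the largest difference among the 15 probe sets tested. Probe set 1456033_at read 83.73, 0.17 and 0.11 in positive replicates 1, 2 and 3, against 199.86, 309.39 and 43.38 in the negative ones. It lay at the 95.1st, 6.7th and 35.9th percentile of the positive arrays and between the 96.1st and 96.5th of the negative arrays. The normalized log2 signal was 6.78, 4.02 and 4.18 in positive arrays against 7.04, 7.19 and 7.06 in negative arrays, and the groups did not overlap. The negative arrays were nearly alike, and the spread lay in the positive group, where replicate 1 was close to them. The difference was -2.11 (SE 0.67, 95% interval -3.58 to -0.63, adjusted p = 0.770 by limma; over 19 alternatives 0.00161 to 0.986, past the threshold in 1). That 1 fit was the one with array weights, at -1.74 (SE 0.37). Without positive replicate 1 the difference was -3.03 (SE 0.44, adjusted p = 0.0538, limma) and without positive replicate 3 it was -1.82 (SE 0.55, adjusted p = 0.281). The dimmer probe set 1426321_at read 5.83, 1.63 and 0.04 in positive arrays against 17.46, 16.06 and 8.02 in negative arrays. It differed by -0.64 (SE 0.27), also without overlap.

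Tbx5, the forelimb counterpart of Tbx4, was likewise measured in the negative cells of this tubercle. Probe set 1425695_at read 33.98, 0.95 and 0.06 in positive replicates 1, 2 and 3, against 65.47, 89.79 and 16.05 in the negative ones. The groups did not overlap after normalization, where it averaged 4.62 ± 0.93 in positive and 5.83 ± 0.10 in negative arrays (SD, n = 3 each). The difference of -1.22 (SE 0.46, adjusted p = 0.770, limma) was -1.03 without positive replicate 3 and -1.76 without positive replicate 1, and it passed in none of 19 alternatives. The second probe set, 1425694_at, was above background on positive replicate 1 alone, at 5.44.

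Tbx18, a factor of ureter and urogenital mesenchyme, varied among the negative arrays themselves. Probe set 1429974_at read 24.42, 0.34 and 0.67 in positive replicates 1, 2 and 3, against 64.85, 21.10 and 2.45 in the negative ones. The third negative value was just above its background of 2.03. The normalized log2 signal was 4.60 ± 0.67 in positive and 4.95 ± 0.71 in negative arrays (SD, n = 3 each), so the difference of -0.36 (SE 0.44, adjusted p = 0.823, limma) was smaller than either spread. The other Tbx18 probe set, 1449871_at, was above background on negative replicate 1 alone.

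Hand2 resembled Tbx2 and Tbx5 from array to array. Probe set 1436041_at read 46.51, 4.95 and 0.03 in positive replicates 1, 2 and 3, against 54.84, 130.17 and 29.00 in the negative ones. Its normalized log2 signal in positive replicate 1, 6.03, lay inside the negative range of 5.59 to 6.57, and the other positive arrays measured 4.50 and 4.01. The difference was -1.27 (SE 0.53, adjusted p = 0.770, limma). Probe set 1422221_at was above background on negative replicate 1 alone and 1443854_at on no array. Hand1, the paralogue known from the placenta and the heart, was at background. Its probe sets 1417525_at and 1448750_at exceeded background on 1 array each, with 8.71 in negative replicate 2 and 2.61 in negative replicate 3, so no fold is given for it.

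**Figure D2:**
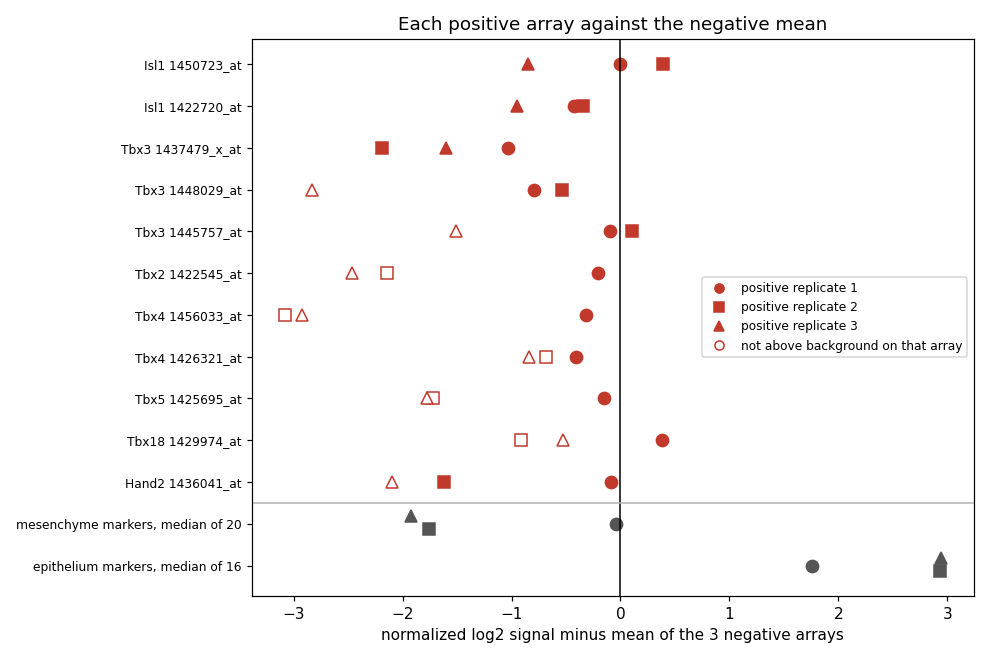
Normalized log2 signal of each positive array minus the mean of the 3 negative arrays, for the 11 member probe sets above background in all negative arrays and for the medians of 2 marker lists. Open symbols were not above background on that array. Positive replicate 1 (circles) lies between -1.03 and 0.38 for all 11, and replicate 2 (squares) reaches -3.08 for Tbx4 while it lies at 0.39 for the brighter Isl1 probe set.

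Across the whole group, 15 of the 19 probe sets had a mean above the filter and were tested, and the other 4 were not. In the 6 arrays 0 of these 15 reached an adjusted p below 0.05 (limma), where 0.0127% of all 31526 probe sets tested passed, and 0% passed as lower. Before adjustment 7 of the 15 had p below 0.05 (limma) and a negative difference, against a background of 2.39%. These 7 belonged to 5 genes, Tbx2, Tbx3, Tbx4, Tbx5 and Hand2, so some of them report the same gene. The count of members with p below 0.05 (limma) was 2 with values as deposited and 2 without negative replicate 3. In these fits 965 and 1135 of all 31526 had such a p. The members were chosen with earlier results of these data known. Groups did not overlap, with positive arrays lower, for 6 of the 15 against 6.53% of all probe sets tested. These 6 belonged to Tbx3, Tbx4, Tbx5 and Isl1. The lack of overlap depended on the normalization. With values as deposited, median centring or scaling to hybridization controls it held for 1 of 17 member probe sets. In these fits it held for 1658, 1110 and 2561 of all 31526. The median difference was -0.58 over the 15 and -0.00 over all probe sets tested. Without positive replicate 3 again 0 members passed, where 0.441% of all did, 0.0761% as lower. With array weights 3 passed, Tbx4 1456033_at, Tbx2 1422545_at and Tbx3 1437479_x_at, all lower, where 2.35% of all probe sets passed and 1.15% as lower. Positive replicate 3 had a weight of 0.115 in the weighted fit and the other arrays 0.661 to 4.20. With replicates 1 and 2 only, a choice made after seeing the data, Tbx3 1437479_x_at alone passed at -2.21 (SE 0.41, adjusted p = 0.0442, limma), where 0.308% of all passed, 0.114% as lower.

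**Figure D3:**
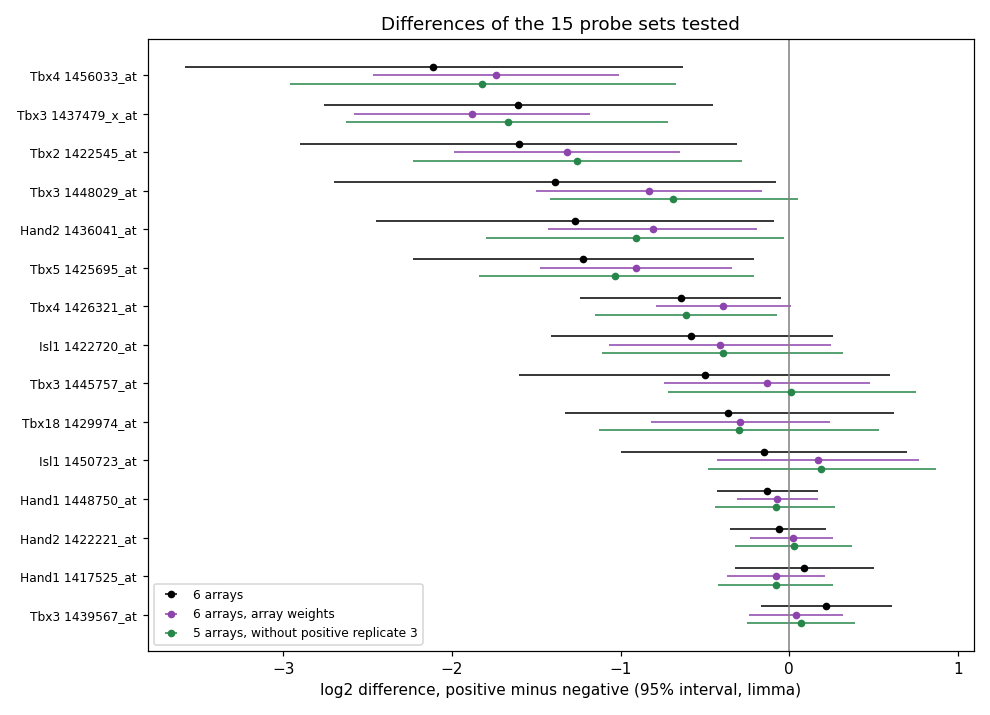
Fitted log2 difference, positive minus negative, with its 95% interval for the 15 member probe sets tested, in the 6 arrays, in the 6 arrays with array weights and in the 5 arrays without positive replicate 3. Tbx4 1456033_at has the lowest value in the 6 arrays at -2.11, and the brighter Isl1 probe set lies at -0.15, 0.17 and 0.19 in the 3 fits.

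The median of the mesenchymal marker genes moved with that of the members across the 3 positive arrays. Not every member followed it, with Isl1 1450723_at at 0.39 and Tbx3 1445757_at at 0.11 from the negative mean in positive replicate 2. The summed deposited signal of 20 markers was 2972, 282 and 17.7 in positive replicates 1, 2 and 3, against 6670, 7308 and 1286 in the negative ones. In positive replicate 1 all 20 exceeded background, in replicate 2 there were 12 and in replicate 3 there were 6, against 19 or 20 in negative arrays. The median distance of the list from the mean of the negative arrays was -0.04, -1.76 and -1.92 in the positive replicates. The median over the 8 members, each by its brightest probe set, was -0.12, -1.67 and -1.69. In the negative replicates the list lay at 0.26, -0.14 and -0.04, and the members at -0.05, 0.08 and -0.04. The summed signal of 16 epithelial markers was 1344, 2925 and 66.8 in positive arrays against 198, 249 and 36.2 in negative arrays. No marker of any list read exactly 0. Mesenchymal cells in a positive pool and mesenchymal transcripts made by the Shh lineage cannot be told apart in bulk RNA, nor can fewer cells of a type and less RNA per cell. The part of either in these values was not tested. Erythroid markers had list medians of -1.82, -1.35 and -2.15 in the positive arrays, and leukocyte markers 0.67, 0.20 and -0.14. Nerve and muscle markers exceeded background for at most 2 genes of either list on any positive array.

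A ratio of deposited signals within 1 array is free of any scaling between arrays, though not of that array's background. The ratio of Isl1 to Tbx4 (1450723_at over 1456033_at, deposited signals) was 2.99 in positive replicate 1 and at least 66.5 in replicate 2, against 2.99, 2.15 and 2.49 in the negative arrays. A signal below background was set to background, which makes the ratio a lower bound, and positive replicate 3 gave at least 2.67. The ratio of Isl1 to Tbx5 was 7.36 and at least 66.5 in positive replicates 1 and 2, against 9.14, 7.40 and 6.72 in negative arrays. That of Isl1 to Hand2 was 5.38 and 59.2, against 10.9, 5.11 and 3.72. That of Isl1 to Tbx2 was 4.41 and at least 66.5, against 7.41, 2.70 and 3.87. For Tbx2, Tbx4, Tbx5 and Hand2 the value in positive replicate 2 thus lay above all 3 negative ones. So did that of Tbx18, at 10.2 and at least 66.5 in positive replicates 1 and 2, against more scattered negative ratios of 9.23, 31.5 and 44.0. The bound of 66.5 is Isl1 over background, so it does not rank Tbx2, Tbx4, Tbx5 and Tbx18. The Tbx3 probe sets gave unlike ratios. Isl1 to Tbx3 was 4.27 and 5.91 with 1448029_at in positive replicates 1 and 2, against 2.97, 2.08 and 2.64. With 1445757_at it was 7.02 and 9.96, against 15.4, 5.14 and 6.25, and with 1437479_x_at it was 4.74 and 27.1, against 1.69, 1.60 and 4.93. The ratio of Tbx3 to Tbx4 (1448029_at over 1456033_at) was 0.70 in positive replicate 1 and at least 11.3 in replicate 2, against 1.01, 1.03 and 0.942. A ratio shows that the signals changed unequally and not which of them changed. The pairs were chosen after the values were seen and the departure rests on 1 array, so no test is given.

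Genes with the most similar profile over the 6 arrays differed between the members. Likeness was the root mean square difference of centred log2 values over the 9595 other genes with a probe set above background on at least 4 arrays. For Tbx4 the nearest were Pdgfrb, a growth factor receptor of mesenchyme, at 0.25, the collagen Col1a2 at 0.26 and Nbea at 0.32, the first pair of which are on the mesenchymal marker list. For Tbx2 they were Rspo3, a secreted Wnt agonist, at 0.20, Igfbp4 at 0.23 and Pdgfrb at 0.25. For Tbx5 they were Zfp36l2 at 0.09, the hedgehog effector Gli2 at 0.10 and Aff3 at 0.11. For Hand2 they were Arhgap28 at 0.15 and Emilin2 and Dpysl4 at 0.18 each. For Tbx18 they were Fat3 at 0.18 and P4ha2 and Prkg1 at 0.20 each. For Tbx3, by 1437479_x_at, they were Igsf3, Ubqln1 and Rac1, at 0.27 to 0.30, and for Isl1 Pias1, Dcbld1 and Get1 at 0.05 to 0.07. The Isl1 profile varied least among these members (SD 0.43), with its lowest value, 7.48, in positive replicate 3. Among the members themselves Tbx5 and Hand2 were closest at 0.27, followed by Tbx2 and Hand2 at 0.30, and Tbx4 and Isl1 were farthest apart at 1.34. Likeness was taken over only 6 arrays of sorted cell pools, after quantile normalization, and says nothing of shared control.

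Related factors and partners were read by the brightest probe set of each gene, and none of them passed in the 6 arrays (limma). Before adjustment p was below 0.05 (limma) for 0 of the T-box genes, 1 LIM gene (Ldb2) and 0 of the partners and regulators of Hand factors. It was also below 0.05 for 3 regulators and targets (Sall1 and Prrx1 with negative and Cdkn1a with positive differences). In the fit with the brightest probe set per gene, 747 of all 14723 genes had such a p in either direction. Of 12 other T-box genes 10 had a probe set, 5 were tested and 0 passed. Tbx15 and Mga had the largest differences among those above background on at least 3 arrays, -0.19 (SE 0.31) and 0.19 (SE 0.48). Of 17 LIM-homeodomain factors and cofactors 13 were tested and 0 passed. In this list Ldb2, a cofactor that bridges LIM proteins, measured 4.68 ± 0.82 in positive and 5.80 ± 0.39 in negative arrays (SD, n = 3 each), a difference of -1.12 (SE 0.45), and Lmo4 differed by -0.90 (SE 0.44). All 9 genes listed as partners and regulators of Hand factors, not all of them helix-loop-helix factors, were tested and 0 passed. Twist1, which pairs with Hand2 in the limb, measured 7.68, 4.77 and 6.76 in positive replicates 1, 2 and 3 against 7.16, 7.58 and 8.33 in the negative ones, and the E protein Tcf12 differed by -0.65 (SE 0.45).

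Regulators and targets of the members in limb and tubercle had mostly negative differences, with a median of only -0.20 and without a call. Of 19 genes 18 were tested, 14 had a negative and 4 a positive difference, and 0 passed. By the brightest probe set per gene, 52.1% of all genes tested had a negative difference, with a median of -0.02. Prrx1, a homeodomain factor of limb mesenchyme that is also on the mesenchymal marker list, measured 6.32 ± 1.55 in positive and 8.37 ± 0.09 in negative arrays (SD, n = 3 each), a difference of -2.05 (SE 0.66, adjusted p = 0.770, limma). With array weights it passed (adjusted p = 0.0171 by limma, lowest of 18 alternatives that reached up to 0.986). Cdkn1a, which encodes a cell cycle inhibitor that Tbx2 and Tbx3 can repress, went the other way at 1.60 (SE 0.46, adjusted p = 0.770, limma). It read 20.48, 37.79 and 2.35 in positive replicates 1, 2 and 3, against 18.47, 16.43 and 0.44 in the negative ones. Normalized values of 5.19, 6.22 and 6.87 all lay above 4.76, 4.59 and 4.11, with the highest in the dim positive replicate 3. Positive arrays lay above all negative ones for 1785 of the 31526 probe sets tested. A link to Tbx2 or Tbx3 was not tested. Cdkn1a passed with array weights (1.14, SE 0.28, adjusted p = 0.0106 by limma, range 0.0106 to 0.986 in 18 alternatives) and not without positive replicate 3 (adjusted p = 0.0953, limma).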

How the data were processed

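Biotin-labelled target from total RNA of the sorted cells was read on Affymetrix mouse arrays, per the labels' protocols. The deposited values are 1 linear intensity per probe set and array, as judged from the values. GCOS is named for 1 sample in the submitters' processing notes, with summarization algorithm, scaling and filters not given in the sources used here. Groups came from the sample labels.

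Control probe sets (64 of 45101) were set aside. Array medians of log2(signal + 16) differed by 0.50, over the limit of 0.2, so linear signals were quantile normalized and transformed to log2(signal + 16). Probe sets with a mean above the 30th percentile were tested in limma 3.58.1 under R 4.3.3 (lmFit, then eBayes, trend on mean signal). Adjustment followed Benjamini-Hochberg over all 31526, at a threshold of 0.05. The steps were run on simulated data with increases added in the positive arrays only, which cannot show how decreases toward background are handled. Of 45037 probe sets 34945 had 1 gene symbol, 932 had several and 9160 were unnamed here. Background was the brightest of 27 unspiked controls, and hybridization controls were 18 probe sets. Symbols were updated through RefSeq (GRCm38.p6). Gene lists came from textbook knowledge, and from each list without a call the 2 genes with the largest difference among those above background on at least 3 arrays were named. The members and lists were chosen with earlier results of these data known.

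Replicate numbers follow accession order. Each positive pool has a negative pool of equal size, with consecutive numbers in the sample titles. Deviations from group means correlated at 0.120, 0.032 and 0.104 for the pools of 3, 5 and 2 and at -0.130 to 0.066 for unlike pools. The labels do not say that pools of equal size come from the same littermates, so whether they are pairs is unknown, and p-values reflect only how far these arrays scatter. The number of arrays limits the precision. The 18 listed alternatives changed normalization, pseudocount, filter, probe sets per gene, weights, block, trend or samples. Another 1 was added after seeing the data, replicates 1 and 2 only. For genes outside the members, the 18 alternatives counted leave out the mean of probe sets per gene and include the added one.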

Additional observations from a re-analysis of the deposited data

How the results depend on the processing

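The 6 arrays gave 4 probe sets past the threshold among all tested. The count was 0 with values as deposited, with scaling to hybridization controls, a pseudocount of 64, the mean of probe sets per gene, no intensity trend or pool size as a replicate block, 36 with median centring, 9 with a pseudocount of 1 or no filter, 18 with probe sets above background on at least 3 arrays, 2 with the brightest probe set per gene, 742 with array weights and 97 with replicates 1 and 2 only. Leaving out 1 array gave 0 to 139, the highest without positive replicate 3. Members past the threshold numbered 3 with array weights and 1, Tbx3 1437479_x_at at -2.21, with replicates 1 and 2 only, and 0 in the 6 arrays and all other alternatives, each single array left out included. The other listed genes gave 0 probe sets in the 6 arrays and 6 with array weights. The pool block changed no member's call. Of 265 member differences under alternatives 240 kept sign and side of the threshold, 4 newly passed and 21 changed sign. Hand1 1417525_at went to -0.20 as deposited, -0.01 with median centring, -0.23 with hybridization controls, -0.02 as gene mean, -0.08 with array weights and -0.12 with replicates 1 and 2 only, and ranged from -0.08 to 0.25 with 1 array left out. Hand1 1448750_at went to 0.02 with median centring and 0.01 with replicates 1 and 2. Hand2 1422221_at went to 0.03 with median centring and 0.02 with array weights or replicates 1 and 2, and ranged from -0.11 to 0.03 with 1 array left out. Leaving out 1 array gave -0.73 to 0.05 for Tbx18 1429974_at (highest without negative replicate 1), and -0.83 to 0.01 for Tbx3 1445757_at and -0.42 to 0.19 for Isl1 1450723_at (highest without positive replicate 3). Tbx3 1439567_at was -0.08 as deposited and -0.10 with hybridization controls, and Tbx3 1445757_at 0.12 with replicates 1 and 2. Isl1 1450723_at was 0.17 with array weights and 0.15 with replicates 1 and 2. The cause was not tested. The median difference of all probe sets was -0.32 as deposited, -0.36 with hybridization controls, -0.13 with median centring and -0.11 with a pseudocount of 1, and that of the members -0.93, -1.04, -0.74 and -1.08. Signals below background in positive replicates 2 and 3 bound what these arrays can show for Tbx2, Tbx4, Tbx5 and Tbx18.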
